A study of Mus musculus with 6 samples.

Results

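Extracellular nucleotides and adenosine signal through a chain of cell-surface proteins, and 10 genes of that chain were followed here in bone marrow-derived macrophages (BMDMs). They were chosen by name, with earlier results of these data known. They were 4 P2Y receptors (*P2ry12*, *P2ry13*, *P2ry14* and *P2ry6*), 2 P2X channels (*P2rx4* and *P2rx7*), 2 ectonucleotidases (*Entpd1* and *Nt5e*) and 2 adenosine receptors (*Adora2a* and *Adora2b*). All 10 were found once each among the 55335 genes of the table. The BMDMs were of WT genotype and had grown for 7 days in 25 ng/ml of macrophage colony-stimulating factor. They were then kept for 24 h in direct co-culture with neutrophils taken from the injured spinal cord 3 days after the injury, and were recovered by cell sorting before total RNA was sequenced. In 3 libraries the neutrophils came from *Cd177* WT mice and in 3 from *Cd177* KO mice, so both groups hold neutrophils and neither is BMDMs alone. The study used adult male C57BL/6 mice, and it names the KO donors as *Cd177*-/- with no restriction to a cell type. The sources used here do not say how many animals or cultures stand behind a library, so the p-values measure the spread between these libraries, which may be technical.

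Dying and stimulated cells release ATP, ADP, UDP and UDP-glucose. P2Y receptors are G protein-coupled receptors that read the di- and triphosphates, P2X receptors are ion channels opened by ATP, CD39 (*Entpd1*) trims ATP and ADP to AMP, CD73 (*Nt5e*) turns AMP into adenosine, and the A2 adenosine receptors (*Adora2a*, *Adora2b*) pass the adenosine signal on through Gs and cAMP. In macrophages P2X7 is best known for potassium efflux and inflammasome activation, P2Y6 for uptake of particles, and the A2 receptors for restraint of cytokine output. P2Y12 is known as the platelet ADP receptor and as a marker of microglia.

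All values are FPKM, fragment counts scaled for transcript length and for the total of the library, so levels can be set side by side between genes. *Cd177* itself ran against the label of the neutrophils, at 0.309 to 0.544 FPKM in WT and 1.79 to 2.28 in KO. It was called higher in KO (log2 fold change 1.37, adjusted p = 0.000827 by limma), and passed the filter only through its KO libraries. The sequenced BMDMs were WT, so *Cd177* does not check their genotype. Whether the labels match the genotype of the neutrophil donors was not tested. All directions below are those of the labels and depend on them. Of 11 neutrophil genes 8 passed the filter and all 8 were called higher in KO (7 with median-of-ratios scaling). Of all tested genes 27.1% were called higher in KO, or 16.1% with that scaling. Among the 8, *Cxcr2* passed the filter only through its KO libraries (mean 0.382 FPKM in WT and 1.16 in KO). The sum of the 11 neutrophil genes was 162 to 227 FPKM in WT and 515 to 527 in KO. *Ly6g* was listed at 0 in every WT library and at 0.403 to 0.660 FPKM in the KO libraries, although the BMDMs had been sorted. *Elane*, also below the filter, had a lower mean in KO with overlapping groups (0.317 FPKM in WT and 0.1385 in KO). The tested neutrophil markers thus differed between the labels, and their part in the changes of the 10 genes was not tested. The libraries separated by label on the first principal component of the tested genes, which held 70.8% of the variance, and the second, with 13.5%, set replicate 3 of each group apart. The estimated depth was 17600000 to 20200000 fragments per library.

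In the libraries labelled KO, 6 of the 10 genes rose and 3 fell. The receptor genes *P2ry12*, *P2ry13*, *P2ry6*, *P2rx7* and *P2rx4* and *Entpd1* (CD39) were higher, with *P2ry12* and *P2ry13* far ahead of the others, whereas *Nt5e* (CD73) and both adenosine receptors were lower. *P2ry14* did not pass the test. Without replicate 3 of each group the same 9 genes were called in the same direction. In bulk RNA, a change in the number of cells of a type and in their RNA per cell cannot be told apart. Fold changes are differences of log2(FPKM + 0.5), KO minus WT, with limma's p adjusted over the 13367 genes that averaged at least 0.5 FPKM, and a gene was called at an adjusted p under 0.05. All 10 genes were tested. *P2ry12* passed that filter only through the KO libraries, and *Nt5e* and *Adora2a* only through the WT libraries. The same rule called 27.1% of all tested genes higher in KO and 10.5% lower. As the 10 genes were chosen with earlier results of these data known, the shares of all genes beside them are a description. The median change of all tested genes was 0.19, against 0.58 for the 10 genes. With median-of-ratios scaling, which removes that general shift, 16.1% of genes were called higher and 16.6% lower, and of the 10 genes 5 were higher and 3 lower. At a fold change above 2 with an unadjusted p under 0.05, the threshold of the study applied to the same test, 5 of the 10 genes passed, against 11.1% of all genes, and without replicate 3 of each group 3 of 10 passed. In each of the 10 genes the lowest value of one group lay above the highest of the other, which held for 51.9% of all tested genes, so such a separation says little by itself in these data.

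**Figure D1:**
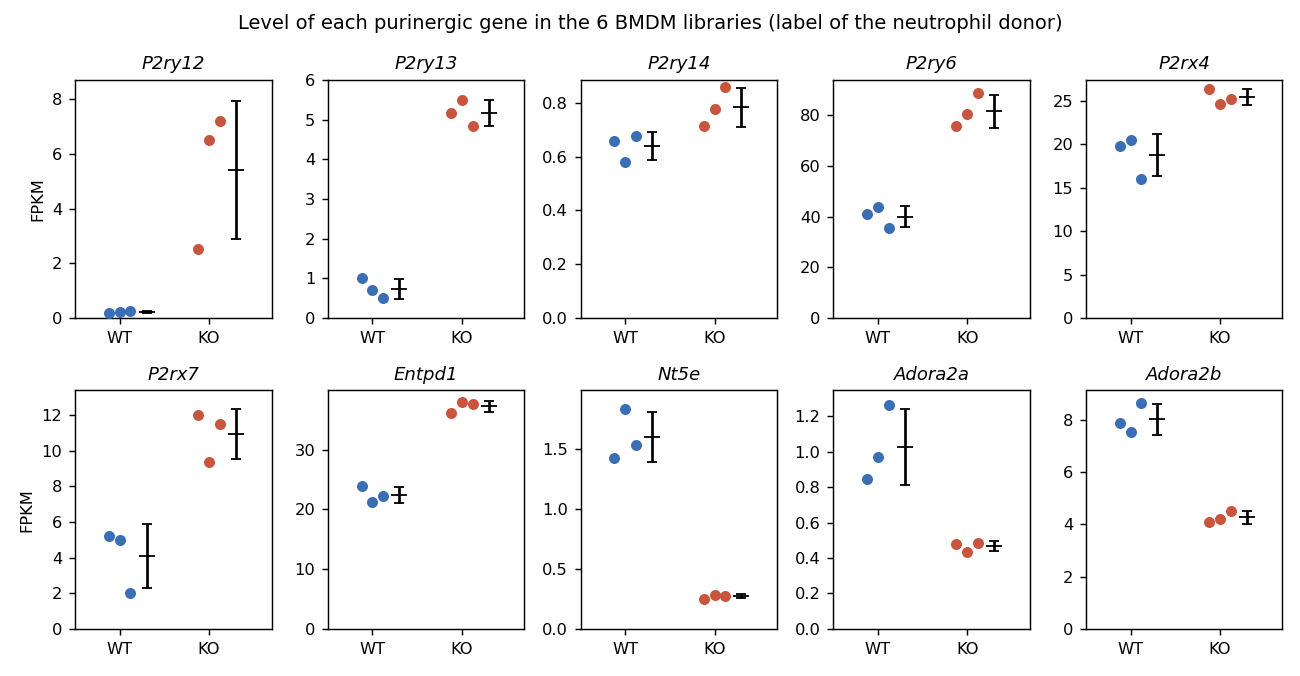
FPKM (linear axis from 0, one scale per panel) of the 10 genes in the 3 libraries labelled WT (blue) and the 3 labelled KO (red), with the mean and SD in black. The groups do not overlap in any panel, but the gap is narrow for *P2ry14* (0.58 to 0.68 against 0.71 to 0.86) and wide for *P2ry12*, where KO replicate 1 sits at 2.52 and the other KO libraries at 6.49 and 7.20.

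The P2Y12, P2Y13 and P2Y14 receptors are encoded side by side on chromosome 3, and the letters just before their starts are shown because these neighbours had very unequal changes. In GRCm38, *P2ry12* (ENSMUSG00000036353) lies at chr3:59216272-59262871, *P2ry13* (ENSMUSG00000036362) at chr3:59207892-59210882 and *P2ry14* (ENSMUSG00000036381) at chr3:59113855-59153618, all on the minus strand. The following are the 250 bases before the RefSeq start of each gene (GRCm38.p6, minus strand, 5′ to 3′, with the first of 4 listed starts for *P2ry14*). The windows are chr3:59262986-59263235, chr3:59210883-59211132 and chr3:59153493-59153742. Capitals mark the matches to the motifs searched.
P2ry12: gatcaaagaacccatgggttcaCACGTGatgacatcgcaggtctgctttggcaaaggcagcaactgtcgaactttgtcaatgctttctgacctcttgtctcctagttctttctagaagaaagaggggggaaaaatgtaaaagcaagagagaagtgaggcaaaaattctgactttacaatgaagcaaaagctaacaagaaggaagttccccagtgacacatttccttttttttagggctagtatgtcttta
P2ry13: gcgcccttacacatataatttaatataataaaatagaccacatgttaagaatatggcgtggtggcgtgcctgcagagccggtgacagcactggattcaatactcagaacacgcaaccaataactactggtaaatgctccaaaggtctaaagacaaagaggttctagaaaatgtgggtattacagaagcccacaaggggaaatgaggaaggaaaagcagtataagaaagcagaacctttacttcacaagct
P2ry14: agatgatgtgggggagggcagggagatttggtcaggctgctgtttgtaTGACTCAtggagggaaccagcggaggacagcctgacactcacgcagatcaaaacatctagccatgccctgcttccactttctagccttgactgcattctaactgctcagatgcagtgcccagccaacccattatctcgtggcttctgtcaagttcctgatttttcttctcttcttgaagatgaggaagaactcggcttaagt
The motifs were PU.1 (GAGGAAGT), ISRE, NF-kB, CRE (TGACGTCA), AP-1 (TGANTCA), the HRE core (ACGTG) and GAS (TTCCNGGAA), searched on both strands. The *P2ry12* window held the HRE core once on each strand, the matches overlapping at positions -228 and -227. The *P2ry13* window held none of the 7, and the *P2ry14* window held AP-1 at position -202. Of the 32851 promoter windows of this length in RefSeq, 16.57% held the HRE core and 6.75% held AP-1, so both matches are common ones. The other shares were 2.44% for PU.1, 2.98% for ISRE, 1.41% for NF-kB, 1.55% for CRE and 0.91% for GAS. Windows were listed for 8 of the 10 genes. Outside the 3 windows shown, AP-1 occurred in *P2rx7* at position -249 and in a second *P2ry14* window (chr3:59131329-59131578) at position -144. No motif occurred in the other *P2ry14* windows or in *P2rx4*, *Entpd1*, *Nt5e* or *Adora2b*. A match of letters is a description and not a binding site.

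*P2ry12* encodes the Gi-coupled ADP receptor. With WT neutrophils it was at 0.177, 0.214 and 0.261 FPKM, and with KO neutrophils, as labelled, at 2.52, 6.49 and 7.20. The gene was near the bottom of the tested range in every WT library and at a moderate level in every KO library, with KO replicate 1 clearly below the other 2. The ratio of the group means was 24.9. The log2 fold change was 2.93 (95% interval 2.11 to 3.75, adjusted p = 0.000903), which ranked 17 of 13367 by size of rise. On the scale of levels the gene moved from percentile 0.539 of the tested genes in WT to percentile 50.0 in KO. It passed the filter only through its KO libraries, so its place at the bottom in WT partly follows from the filter. The WT values rest on an estimated 7.8 to 11 fragments per library and the KO values on 100 to 310, so the size of the rise depends on the pseudocount and was 3.99 with 0.1 and 2.30 with 1.

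*P2ry13* encodes a further Gi-coupled receptor for ADP. It was at 1.01, 0.721 and 0.504 FPKM in WT and at 5.16, 5.50 and 4.84 in KO. The KO libraries were close to each other, and the WT libraries were all low with a wider relative spread (CV 34.1% against 6.41%). The log2 fold change was 2.20 (95% interval 1.81 to 2.60, adjusted p = 0.000133), a ratio of means of 6.93. *P2ry12* FPKM divided by *P2ry13* FPKM was 0.330 ± 0.174 in WT and 1.05 ± 0.511 in KO (SD, n = 3 each), with KO replicate 1 at 0.489, inside the WT range of 0.175 to 0.518. The groups of this ratio overlapped, no test was run on it, and its WT values rest on few fragments.

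*P2ry14*, which encodes the receptor for UDP-glucose and related sugars, was at 0.658, 0.581 and 0.678 FPKM in WT and 0.713, 0.776 and 0.858 in KO. The groups were adjacent without overlap and the gap between them was smaller than the spread inside either group. Its log2 fold change of 0.17 (95% interval -0.14 to 0.48, adjusted p = 0.337) did not pass the test, and with median-of-ratios scaling it was 0.04. The upper bound of that interval lies below the lower bounds of *P2ry12* and *P2ry13*.

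These 3 genes, together with *Gpr171*, lie inside *Med12l*, which runs on the opposite strand from chr3:59005825-59318682. *P2ry13* and *P2ry14* fall in an intron of *Med12l* and share no exon base with it, and *P2ry12* shares 9. *Med12l*, a Mediator subunit gene, was at no more than 0.0757 FPKM in any library. *Gpr171*, an orphan receptor of the same family, had overlapping groups with means of 1.19 FPKM in WT and 0.714 in KO (log2 fold change -0.47, adjusted p = 0.149). *Igsf10*, next to the cluster, was also not called (0.49, adjusted p = 0.137). Of the 5 protein-coding genes tested at this locus, *P2ry12* and *P2ry13* were the ones called.

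**Figure D2:**
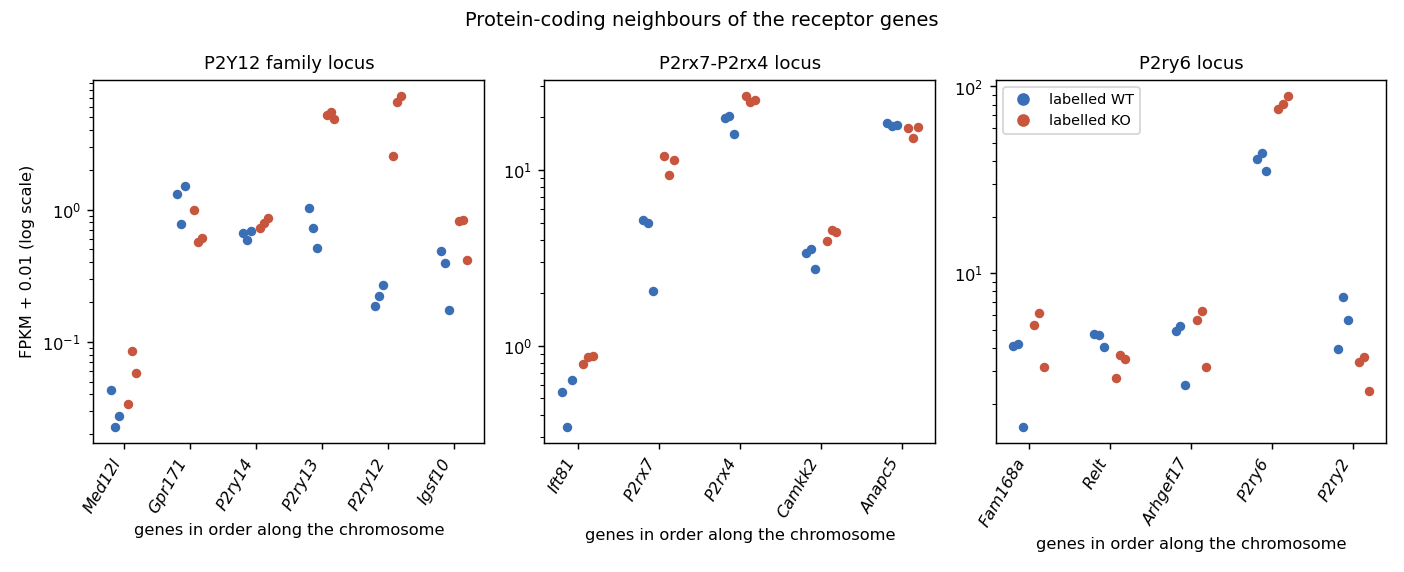
FPKM + 0.01 on a log axis for protein-coding genes above 0 in at least 1 library within 100 kb of the P2Y12 family, *P2rx7* and *P2rx4*, or *P2ry6*, in chromosomal order (not to scale), 3 points per group (blue WT, red KO). In the P2Y12 family panel *P2ry12* and *P2ry13* separate widely while *P2ry14*, *Gpr171* and *Igsf10* stay below 2 FPKM, and in the *P2ry6* panel *P2ry6* and *P2ry2* move in opposite directions.

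*P2ry6* (ENSMUSG00000048779, chr7:100937630-100974649, minus strand) encodes the Gq-coupled UDP receptor and was the most abundant of the 10 genes in both groups. It was at 40.9, 43.8 and 35.5 FPKM in WT and 75.8, 80.3 and 88.7 in KO. Every KO library was far above every WT library, with a spread of about the same relative size in both groups (CV 10.5% and 7.99%). The log2 fold change was 1.02 (95% interval 0.76 to 1.28, adjusted p = 0.000564), and 0.81 with median-of-ratios scaling. *P2ry6* alone held 41.0% ± 1.55 of the summed FPKM of the 10 genes in WT and 47.5% ± 1.30 in KO (SD, n = 3 each), and that sum was 97.6 ± 7.72 and 172 ± 8.97 FPKM. *P2ry2*, the Gq-coupled receptor for UTP and ATP, lies 21.9 kb away on the same strand and went the other way, from 3.90, 7.45 and 5.60 to 3.36, 3.58 and 2.35 FPKM (log2 fold change -0.75, adjusted p = 0.0475), a call lost under 8 of 17 alternatives (adjusted p up to 0.169). The WT libraries of *P2ry2* varied most, and the lowest of them was only slightly above the highest KO library. *P2ry6* exceeded *P2ry2* 7.56-fold in WT (SD 2.54) and 27.6-fold in KO (SD 8.82).

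*P2rx4* and *P2rx7* encode ATP-gated channels and are neighbours on chromosome 5, at chr5:122707544-122729738 (ENSMUSG00000029470) and chr5:122643911-122691432 (ENSMUSG00000029468), both on the plus strand with 16.1 kb between them. *P2rx7*, the channel that needs high ATP, was at 5.21, 5.01 and 2.03 FPKM in WT and 12.0, 9.36 and 11.5 in KO. WT replicate 3 was well below the other WT libraries, and the KO libraries were all higher than any of them. The log2 fold change was 1.41 (95% interval 0.65 to 2.16, adjusted p = 0.0132), and 0.98 without replicate 3 of each group. *P2rx4*, which responds to lower ATP and is largely found on lysosomes, was at 19.7, 20.4 and 16.0 FPKM in WT and 26.4, 24.6 and 25.2 in KO. The KO libraries were tightly grouped above the WT libraries, of which replicate 3 was again the lowest. Its log2 fold change was 0.44 (95% interval 0.17 to 0.70, adjusted p = 0.0208), and the call was lost with median-of-ratios scaling (0.23, adjusted p = 0.146) and when KO replicate 1, 2 or 3 was left out (adjusted p = 0.0786, 0.0578 and 0.0546).

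P2X7 took a larger part of the P2X FPKM in KO. *P2rx7* made up 20.9%, 19.7% and 11.3% of the sum of *P2rx4* and *P2rx7* in the WT libraries and 31.3%, 27.6% and 31.3% in the KO libraries. The KO shares were all higher, by 12.8 percentage points on average, and the exact two-sided permutation test gave p = 0.1, the smallest value that 3 against 3 libraries allow. *Camkk2*, the kinase gene beyond *P2rx4*, was called higher by a small margin (log2 fold change 0.38, adjusted p = 0.0487) and lost the call with median-of-ratios scaling and with no filter, whereas *Anapc5*, a subunit of the anaphase-promoting complex, was not called (-0.11, adjusted p = 0.342). Of all 51 annotated neighbours within 100 kb of any of the 10 genes, 27 were tested, 5 were called higher and 2 lower. Of all tested genes 27.1% were called higher and 10.5% lower.

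The ectonucleotidases that act in sequence moved in opposite directions. *Entpd1* (ENSMUSG00000048120, chr19:40612366-40741602, plus strand), which encodes CD39, was at 23.9, 21.2 and 22.3 FPKM in WT and 36.2, 37.9 and 37.7 in KO. Both groups were tight and far apart (CV 5.94% and 2.50%). Its log2 fold change was 0.72 (95% interval 0.53 to 0.91, adjusted p = 0.000694) and 0.51 with median-of-ratios scaling. *Nt5e* (ENSMUSG00000032420, chr9:88327197-88372092, plus strand), which encodes CD73, was at 1.43, 1.83 and 1.53 FPKM in WT and 0.252, 0.284 and 0.277 in KO. It was low in every library and lowest in the KO libraries, which lie under the pseudocount. The WT mean was 5.89 times the KO mean, with a log2 fold change of -1.44 (95% interval -1.76 to -1.12, adjusted p = 0.000342), and -2.19 with a pseudocount of 0.1. The KO values rest on an estimated 18 to 23 fragments per library, against 110 to 130 in WT. The ratio of *Entpd1* to *Nt5e* FPKM was 16.7, 11.6 and 14.5 in WT and 144, 134 and 136 in KO, so the 2 transcripts were much further apart in every KO library. That ratio was chosen after its values were seen and is given with no test.

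Both adenosine receptors were lower in KO. *Adora2b* (ENSMUSG00000018500, chr11:62248984-62266453, plus strand), the low-affinity receptor, was at 7.87, 7.54 and 8.67 FPKM in WT and 4.08, 4.20 and 4.53 in KO. The groups were far apart relative to their spread. Its log2 fold change was -0.84 (95% interval -1.06 to -0.61, adjusted p = 0.000775) and it kept its call under all 17 alternatives. *Adora2a* (ENSMUSG00000020178, chr10:75316877-75334784, plus strand), the high-affinity receptor, was at 0.847, 0.970 and 1.26 FPKM in WT and 0.478, 0.435 and 0.486 in KO. The KO libraries were near each other and the WT libraries were higher but more spread (CV 20.8% against 5.86%). The log2 fold change was -0.65 (95% interval -1.01 to -0.29, adjusted p = 0.0145), -0.98 with a pseudocount of 0.1, and the call was lost without KO replicate 2 (adjusted p = 0.0524). *Adora2b* made up 90.3%, 88.6% and 87.3% of the sum of *Adora2a* and *Adora2b* in WT and 89.5%, 90.6% and 90.3% in KO. These shares overlapped and differed by 1.42 percentage points (exact two-sided permutation p = 0.2).

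**Figure D3:**
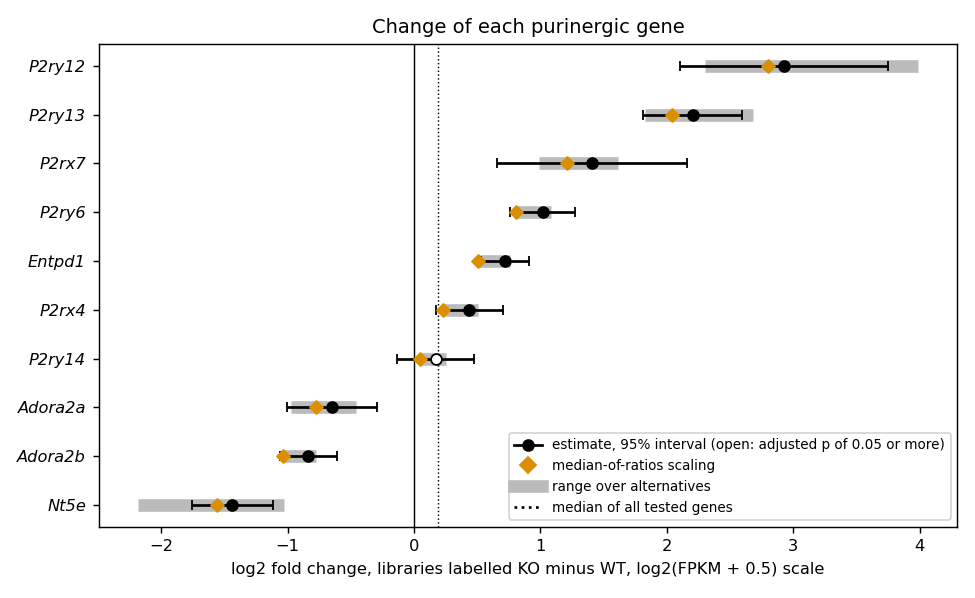
Log2 fold change (KO minus WT, log2(FPKM + 0.5) scale) of the 10 genes with 95% interval, the value with median-of-ratios scaling (diamonds), the range over the alternatives (grey) and the median of all tested genes (dotted, 0.19). *P2ry12* (2.93) and *P2ry13* (2.20) stand at the top, *Nt5e* (-1.44) at the bottom, and *P2ry14* (0.17, open) lies on the median of all genes.

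The order of the levels changed with the label. In WT it ran *P2ry6* (40.1 FPKM), *Entpd1* (22.5), *P2rx4* (18.7), *Adora2b* (8.03), *P2rx7* (4.08), *Nt5e* (1.60), *Adora2a* (1.03), *P2ry13* (0.746), *P2ry14* (0.639) and *P2ry12* (0.217). The ranges of *Adora2a* and *P2ry13*, and of *P2ry13* and *P2ry14*, overlapped, and all other neighbours in that order were apart. In KO the first 3 kept their places at 81.6, 37.3 and 25.4 FPKM. They were followed by *P2rx7* (11.0), *P2ry12* (5.40), *P2ry13* (5.17), *Adora2b* (4.27), *P2ry14* (0.783), *Adora2a* (0.467) and *Nt5e* (0.271), where the range of *P2ry12* (2.52 to 7.20) took in those of *P2ry13* and *Adora2b*, and the ranges of all other genes were apart. By group means *P2ry12* moved from the last place to the fifth, *Nt5e* from the sixth to the last, and *Adora2b* from the fourth to the seventh. In KO replicate 1 *P2ry12* lay below both *P2ry13* and *Adora2b*.

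The rest of the system was followed in 75 further listed genes, of which 53 passed the filter. In the libraries labelled KO 11 of these 53 rose and 13 fell, and with median-of-ratios scaling 7 rose and 17 fell. Of all tested genes 27.1% were called higher and 10.5% lower, or 16.1% and 16.6% with that scaling. These shares also stand as background for the counts of each list below. None of the 5 other P2X genes reached the filter. *P2rx1* was at 0.0294 to 0.137 FPKM in WT and 0.240 to 0.509 in KO, without overlap (adjusted p = 0.0517 by limma with no filter), and *P2rx5* was at 0.0680 to 0.437 and 0.219 to 0.456. *Adora1* was listed at 0 in all libraries and *Adora3* was at no more than 0.648 FPKM. Of 5 other P2Y genes 3 were tested. *P2ry10b*, a relative of the lysophosphatidylserine receptor P2Y10, fell from 7.18, 6.77 and 6.25 to 1.40, 3.24 and 3.22 FPKM (log2 fold change -1.28, adjusted p = 0.00978). *P2ry1*, the Gq-coupled ADP receptor, was at 1.12, 0.843 and 0.757 FPKM in WT and 1.66, 1.15 and 1.63 in KO (0.49, adjusted p = 0.0558). Its groups did not overlap, as held for 51.9% of all tested genes. It was called with the replicate block (adjusted p = 0.0467) but not with median-of-ratios scaling (adjusted p = 0.158) or with no filter (adjusted p = 0.139).

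*Gpr34*, a lysophosphatidylserine receptor of the P2Y12-like group, had a larger log2 fold change than any of the 10. It was at 0.0252, 0 and 0.0797 FPKM in WT and 10.4, 9.02 and 11.8 in KO. It was close to undetected in each WT library and clearly present in each KO library (log2 fold change 4.34, adjusted p = 3.51e-06). Like *P2ry12*, *Gpr34* passed the filter only through its KO libraries. Of the 4 P2Y12-like genes 2 were tested, and *Gpr17* was at no more than 0.105 FPKM.

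Of 9 other surface enzymes of nucleotide breakdown 4 were tested, and *Cd38*, *Bst1* and *Acpp* fell. The 5 not tested were low, *Entpd2* among them at no more than 0.026 FPKM in WT and 0.0267 to 0.0927 in KO. *Cd38*, which consumes NAD, went from 8.49, 10.6 and 8.65 to 1.14, 1.03 and 0.952 FPKM (log2 fold change -2.66, adjusted p = 1.36e-05). *Bst1* (CD157), its relative with the same substrate, went from 16.3, 14.4 and 19.3 to 1.69, 1.84 and 1.93 FPKM (-2.88, adjusted p = 1.13e-05). *Acpp*, a phosphatase that can make adenosine from AMP, went from 7.69, 8.70 and 6.38 to 0.852, 1.12 and 0.866 FPKM (-2.48, adjusted p = 4.17e-05). All 3 were low in every KO library and kept their calls under each alternative. *Enpp1*, which splits ATP to AMP and pyrophosphate, had a log2 fold change of -0.34 (adjusted p = 0.0506), and it was called lower with median-of-ratios scaling (-0.53, adjusted p = 0.00889). *Cd38*, *Bst1*, *Acpp* and *Nt5e* summed to 35.1 ± 1.02 FPKM in WT and 4.08 ± 0.181 in KO (SD, n = 3 each).

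Adenosine handling was split. Of 9 tested genes 2 rose, 3 fell and 4 were not called. *Slc29a1*, the equilibrative nucleoside transporter ENT1, rose from 18.4, 15.6 and 17.4 to 32.2, 31.7 and 32.1 FPKM (log2 fold change 0.89, adjusted p = 0.00041). *Ada*, which deaminates adenosine to inosine, rose from 0.953, 1.02 and 0.597 to 1.89, 2.03 and 2.33 FPKM (0.94, adjusted p = 0.00468). *Pnp*, which takes inosine further to hypoxanthine, fell from 97.3, 95.3 and 132 to 26.2, 25.0 and 30.2 FPKM (-1.97, adjusted p = 0.000138). Its near-identical copy *Pnp2* fell alike (-1.86), and the counting could have split reads between them. The concentrative transporter *Slc28a2* fell by 0.42 on the log2 scale, a call that was lost under 6 of 17 alternatives (adjusted p up to 0.109).

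Downstream of the receptors 17 of 19 listed G protein, cyclase and cAMP response genes were tested, and 5 rose and 3 fell. *Gnai2*, the Gi subunit that P2Y12 and P2Y13 use, rose from 156, 152 and 156 to 222, 222 and 245 FPKM (log2 fold change 0.57, adjusted p = 0.00175). The adenylate cyclase *Adcy3* (0.89), the protein kinase A subunit *Prkaca* (0.75) and the factor *Creb1* (0.87) rose as well, and *Gnas* (0.33) was called higher but lost the call under 6 of 17 alternatives (adjusted p up to 0.336). *Crem*, *Nr4a1* and *Nr4a2*, known as genes induced by cAMP, went the other way. *Crem* fell from 4.77, 3.88 and 5.98 to 1.90, 1.20 and 1.63 FPKM (-1.37, adjusted p = 0.00186), *Nr4a1* fell by 0.70 and *Nr4a2* by 0.93 on the log2 scale. No KO library reached a WT library in any of these 3, while the groups of 51.9% of all tested genes did not overlap in either direction.

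Of 6 tested genes that act after P2X7 opening 1 was called higher, 1 lower and 4 were not called. *Kcnk6*, the potassium channel TWIK2, was called higher (log2 fold change 0.48, adjusted p = 0.0438) and lost the call under 9 of 17 alternatives (adjusted p up to 0.187), and *Gsdmd*, the pore former of pyroptosis, was called lower (-0.31, adjusted p = 0.0372) and lost it under 6 (up to 0.137). *Nlrp3* (-0.11), *Casp1* (-0.11), *Pycard* (0.33) and *Nek7* (-0.59) were not called, and *Nek7* ranged from 3.55 to 16.4 FPKM inside the KO group. Of 7 tested genes for nucleotide release 0 were called by limma (3 had an unadjusted p under 0.05), with *Panx1* at -0.25 (95% interval -0.55 to 0.04) and the volume-regulated channel subunit *Lrrc8a* at -0.02 (-0.40 to 0.36). The largest change of the 7 was that of *Lrrc8d* (-1.21, 95% interval -2.305 to -0.113, adjusted p = 0.0803 by limma). With median-of-ratios scaling *Panx1* and *Lrrc8c* were called lower. With the replicate block *Lrrc8c* was called lower and *Gja1* higher (adjusted p = 0.0462 and 0.0426). Of 5 intracellular relatives of CD39, *Entpd7* fell (-0.71, adjusted p = 0.00698), while *Entpd4* and its near-identical copy *Entpd4b* were called higher by a small margin (0.42 and 0.41) and lost the call under 9 and 10 of 17 alternatives (adjusted p up to 0.150 for *Entpd4*).

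**Figure D4:**
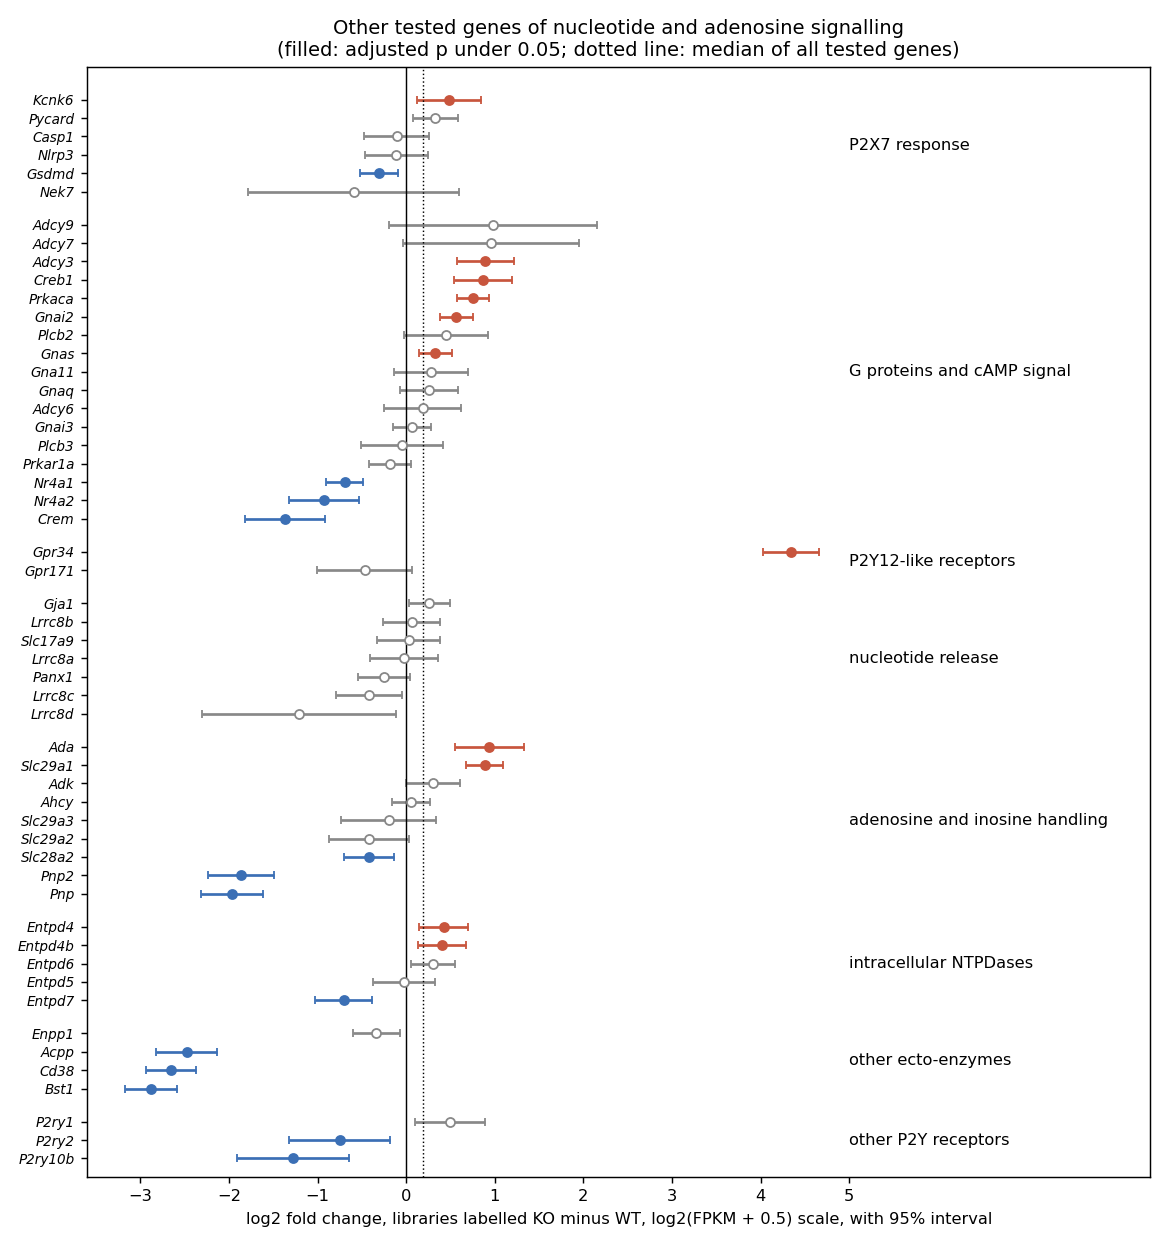
Log2 fold change (KO minus WT, log2(FPKM + 0.5) scale) with 95% interval of the 53 tested genes around the 10, by role (filled points passed an adjusted p of 0.05, red higher and blue lower). *Gpr34* stands alone at 4.34, *Cd38*, *Bst1* and *Acpp* lie between -2.48 and -2.88, and no gene of nucleotide release is filled.

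Markers of other cell types were measured beside these results. Macrophage markers were high in all libraries, with a list sum of 5717 to 6808 FPKM in WT and 7135 to 7808 in KO. Of 7 tested, *Adgre1* and *Mertk* were called higher, both lost with median-of-ratios scaling, and *Fcgr1* was called lower. Of 6 microglial genes 4 were tested and 0 were called by limma (1 had an unadjusted p under 0.05). With median-of-ratios scaling *Tmem119* was called lower (-0.52, adjusted p = 0.0122). The defining *Sall1* and *Siglech* were at no more than 0.0415 and 0.0291 FPKM in any library, including those where *P2ry12* and *Gpr34* were high. For T cells, *Cd3e*, *Cd3d*, *Cd3g* and *Cd8a* were at no more than 0.0541 FPKM and *Cd4* rose (1.43). For B cells, *Cd79a*, *Ms4a1* and *Pax5* were at no more than 0.0519 FPKM and *Cd79b* rose (1.80). For platelets, which carry P2Y12, 5 genes were listed and 2 tested. *Pf4* was at 829 to 1327 FPKM in WT and 782 to 845 in KO (-0.27, adjusted p = 0.300), and *Ppbp* fell (-1.24). Below the filter, *Itga2b* was at 0.296 to 0.413 FPKM in WT and 0.464 to 0.537 in KO (adjusted p = 0.254 by limma with no filter). *Gp9* was at 0 to 0.126 and 0.222 to 0.518 (adjusted p = 0.0419 by the same fit), and *Gp1bb* at 0.00454 to 0.805 and 0.206 to 0.286. The groups of *Itga2b* and *Gp9* did not overlap, as held for 51.9% of all tested genes, while *Ppbp* fell and the groups of *Pf4* and *Gp1bb* overlapped. The part of platelet RNA in the *P2ry12* change was not tested. The mast cell and basophil gene *Mcpt8* fell (-1.43), with *Fcer1a* at 0 in all libraries. No dendritic cell gene passed the filter. Of the endothelial and spinal cord lists 1 gene each was tested and neither was called, with *Snap25*, *Aqp4* and *Mog* at 0 throughout.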

How the data were processed

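The authors deposited FPKM per gene for 55335 mouse Ensembl identifiers in 6 libraries. Per the labels, the submitters' processing notes name fastp 0.17.1, HISAT2 2.1.0, DESeq2 1.18.1 and R 3.4.3. The build, annotation and strand setting are not given in the sources used here, and the RNA and library kits named by the labels differ from those in the methods. Identifiers were matched to GENCODE M21 (GRCm38) for 99.7%. No column was left without a sample.

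The authors tested counts with DESeq2. Counts were not used here, so log2(FPKM + 0.5) was tested with limma 3.58.1 (R 4.3.3, eBayes with trend, two-sided, Benjamini-Hochberg over 13367 genes averaging at least 0.5 FPKM), without covariates. Only 39.7% to 43.9% of low values lay within 0.1 of a whole read step (20% by chance), so reads were not recovered. Fragments per gene are therefore estimates. FPKM shifts with abundant genes.

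The members and lists were chosen with earlier results of these data known. All 10 members are given in every library, and of the listed and neighbouring genes those within 100 kb or past the filter may be named. Scripts were tested on simulated data. The alternatives were pseudocounts 0.1 and 1, no filter or 1 FPKM, 3 other scalings, a robust variance, a replicate block and each library left out. Groups of 3 were not screened for outliers.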

Additional observations from a re-analysis of the deposited data

How the results depend on the processing

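Over 17 alternatives the 10 genes gave 167 values, of which 161 kept direction and side of the threshold, 6 lost the call and 0 reversed. The lost calls were 5 of *P2rx4* and 1 of *Adora2a*. With a filter of 1 FPKM, 7 of the 10 were tested and 1 was called lower. Of the listed pathway genes, 7 were called higher with median-of-ratios and with upper-quartile scaling, 7 to 13 when one library was left out, and 17 without replicate 3 of each group. With median-of-ratios scaling 2156 of all genes were called higher and 2215 lower. Without replicate 3 of each group 3 of the 10 genes passed the fold threshold. The *Adora2b* share reversed when written as a log2 ratio with a pseudocount of 0.5 (-0.19), since *Adora2a* lies near that pseudocount. Leaving out one library gave 0.700 to 2.20 percentage points for the *Adora2b* share and 9.75 to 14.6 for the *P2rx7* share.

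The replicate numbers did not pair the libraries throughout: the deviations of same-numbered libraries correlated at 0.116, 0.036 and 0.264. WT replicates 1 and 2 correlated best with another number. WT replicate 3 correlated best with KO replicate 3, and at -0.174 and -0.1395 with KO replicates 1 and 2. With the replicate block 6 of the 10 genes were called higher and 3 lower, and 16 and 15 of the pathway genes. Median-of-ratios scaling together with the replicate block, chosen after seeing the data like the removal of replicate 3 of each group, called 21 pathway genes and 2689 of all genes lower. Depth limits *P2ry12*, *Nt5e* and *Adora2a*, each with no more than 23 estimated fragments per library in its lower group.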
